A study of Homo sapiens with 8 samples.

Results

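The comparison described here sets Kyse510 cells given SP2509 and UNC0642 together against Kyse510 cells given vehicle. Its members are all genes with a level of at least 1 FPKM (a fragment count adjusted for transcript length and for the size of the library) in at least 1 of these libraries, which were 13907 of the 31582 genes in the inhibitor table. Kyse510 is an established human esophageal squamous cell carcinoma (ESCC) line. SP2509 is an inhibitor of the histone demethylase LSD1 (gene KDM1A), and UNC0642 is an inhibitor of the histone methyltransferase G9a (gene EHMT2). The series description gives 7 µM for each inhibitor used alone and 2 days of treatment, and no separate dose is stated for the combination. Every group was 1 library, namely vehicle (DMSO), SP2509, UNC0642 and both inhibitors, all from the same unmodified line. In a second table that was normalized separately, lines carrying a doxycycline-inducible shRNA to LSD1 or to G9a, selected with puromycin, had 1 library each without and with doxycycline.

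Because each condition was 1 library, no difference below has a replicate check. The deposited FPKM values could be turned back into whole reads for all 31582 genes, and this gave library totals of 15662035 reads in the vehicle library and 16880224 in the combination, with 17804295 after SP2509 and 17889466 after UNC0642. Ratios are given as log2 of (FPKM + 1) with both inhibitors over (FPKM + 1) with vehicle, a scale that understates changes of low genes. A gene is said to have risen or fallen when this ratio was at least 1.3-fold and the exact (Clopper-Pearson) 95% interval of the ratio of its reads excluded 1. That interval covers counting error only and compares 2 libraries, not 2 conditions. A read ratio in the text is the library-size corrected ratio of reads, both inhibitors over vehicle, followed by this interval. For a gene with no reads in 1 library, the ratio is given against a floor of 3 reads in that library, followed by the lower limit of the exact interval, which is stricter. A gene below 1 FPKM with vehicle was tested only where the combination reached 1 FPKM, so for such genes the filter itself favours increases. A gene below 1 FPKM with both inhibitors was tested only where the vehicle library reached it, so for such genes the filter favours decreases. Both hold in every list, genome window and gene class with such genes.

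LSD1 removes methyl groups from lysine 4 of histone H3 and works in the CoREST corepressor complex, and G9a, together with its partner GLP (gene EHMT1), methylates lysine 9 of histone H3. Both enzymes are known mainly as repressors of transcription. The squamous epithelium of the esophagus holds basal cells, which divide and express TP63, SOX2, KRT5 and KRT15, and differentiating cells above them, which leave the cell cycle and make the cornified envelope, a layer of cross-linked proteins such as involucrin and the small proline-rich proteins.

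Of the 13907 genes tested, 4002 rose (28.8%) and 4009 fell (28.8%), and 5896 were not called. At a ratio of at least 2-fold, 1653 genes rose (11.9%) and 1162 fell (8.36%). The counts of each gene list below are to be read beside these shares of all tested genes. Larger changes were mostly increases, with 352 genes up and 112 down at least 4-fold, and 101 up and 13 down at least 8-fold. The median log2 ratio was -0.02 over all tested genes and 0.04 over the 5910 genes at 5 FPKM or more in both libraries. A level of 1 FPKM was reached in both libraries by 10979 genes, only with both inhibitors by 1562 and only with vehicle by 1366. Of the 1562, 1108 rose, and of the 1366, 880 fell. The genes that rose had summed levels of 51693 FPKM with vehicle and 105739 with both inhibitors, and those that fell had 112657 and 58069. At the limit of 1 FPKM, the 373 genes whose higher value was 1 to 1.1 FPKM had a median log2 ratio of 0.12 and the 403 genes at 0.9 to 1 FPKM, which were not members, had 0.05.

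**Figure D1:**
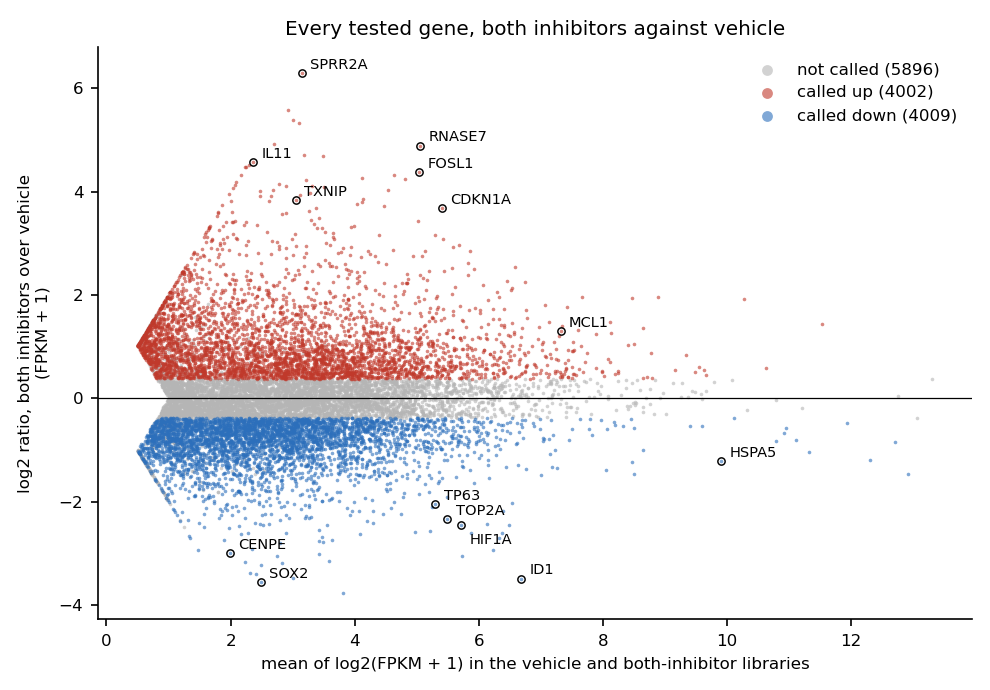
Each point is 1 of the 13907 tested genes, with the mean of its log2(FPKM + 1) in the vehicle and both-inhibitor libraries on the x axis and its log2 ratio, both inhibitors over vehicle, on the y axis. Red points are the 4002 genes that rose, blue points the 4009 that fell and grey points the 5896 not called. Ratios reach 6.30 for SPRR2A at the top, and ID1, a gene of high level, lies at -3.49.

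The genes of the enzymes themselves were measured in every inhibitor library. KDM1A stood at 40.7 FPKM in the vehicle library, 36.2 with SP2509, 40.3 with UNC0642 and 32.0 in the combination, a log2 ratio of -0.34 that did not reach the threshold. EHMT2 was at 5.38 FPKM with both inhibitors against 11.1 with vehicle, 10.2 with SP2509 alone and 10.3 with UNC0642 alone, and it fell with a read ratio of 0.484 (0.4396 to 0.532). The level of EHMT2 was thus near its vehicle value in either single-inhibitor library and lowest in the combination. EHMT1 also fell, with a log2 ratio of -0.52, from 3.35 FPKM with vehicle to 2.04 with both inhibitors. Transcript levels do not measure inhibition of an enzyme. SFRP2, a secreted Wnt antagonist that the study followed, was no member, with 0 reads with vehicle, 7 with both inhibitors and 0.204 FPKM. Its read ratio was 2.16 against the floor (lower limit 1.34).

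The squamous identity of the cells was checked with 14 markers, of which 13 were tested, and the desmosomal gene PKP1 was below 1 FPKM in both libraries. The summed level of the 14 was 1632 FPKM with vehicle and 2259.5 with both inhibitors. KRT17, SFN, PERP, EPCAM, KRT14 and KRT6A rose, TP63, DSG3, KRT5 and DSP fell, and TRIM29, JUP and CDH1 were not called. Most markers of other cell types were near 0. Of those in the table, 1 of 14 neuronal, 2 of 8 fibroblast, 2 of 7 leukocyte, 1 of 7 endothelial and 1 of 12 glandular genes were tested. The tested ones all rose except 1 fibroblast gene that was not called. Both leukocyte genes (CSF1R and ITGAM) and the glandular gene (KRT20) were below 1 FPKM with vehicle. They were tested only through the combination library, so the filter itself favoured their increase. With vehicle and with both inhibitors, NEFL (neurons) was at 4.57 and 10.8 FPKM and COL1A1 (fibroblasts) at 2.96 and 5.36. ITGAM (leukocytes) was at 0.316 and 2.01 FPKM and KRT20 (glandular) at 0.0692 and 1.28, and CSF1R and CDH5 are given below. Among markers not tested, PTPRC (leukocytes), PECAM1 and KDR (endothelium), CDX2 and VIL1 (intestine) and RBFOX3 (neurons) were at 0 with vehicle and at most 0.282 FPKM with both inhibitors. ELAVL4 (neurons) and GKN1 (stomach) were at 0 in both. The summed level of each list was nevertheless higher with both inhibitors, from 5.11 to 13.0 FPKM for neuronal genes, from 4.39 to 7.17 FPKM for fibroblast genes, from 0.971 to 10.5 FPKM for leukocyte genes, from 3.83 to 13.5 FPKM for endothelial genes and from 0.306 to 2.61 FPKM for glandular genes. In the leukocyte list most of this was CSF1R, the receptor of a macrophage growth factor, which rose from 0.384 FPKM with vehicle to 7.35 with both inhibitors. In the endothelial list it was CDH5, vascular cadherin, which rose from 3.28 FPKM with vehicle to 11.8 with both inhibitors. The part of other cell types in the results below was not tested. Since whole cultures were sequenced, a change in the share of some cells and a change in the RNA of each cell cannot be told apart.

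The largest increases were genes of the differentiated squamous layer and secreted factors. SPRR2A, a small proline-rich cornified envelope protein, was at 0 FPKM with vehicle and 77.8 with both inhibitors, with 0.634 after SP2509 alone and 3.07 after UNC0642 alone. It had 0 reads in the vehicle library and 931 in the combination, 288-fold higher against the floor (lower limit of the exact interval 234). LCE3D, a late cornified envelope protein, was at 0.104 FPKM in the vehicle library, 2.02 with SP2509, 3.56 with UNC0642 and 51.7 in the combination. With 1 read in the vehicle library its read ratio was 496 (88.7 to 19643). SPRR1A, of the same protein family as SPRR2A, was at 50.7 FPKM with both inhibitors against 0.236 with vehicle, 8.94 with SP2509 alone and 8.902 with UNC0642 alone. In these cornification genes the single inhibitors lay between vehicle and the combination. SBSN, which encodes suprabasin of the suprabasal epidermis, was at 0.354 FPKM with vehicle and 53.6 with both inhibitors, with 0.905 after SP2509 alone and 4.95 after UNC0642 alone, a log2 ratio of 5.33. KRT34, a keratin of hair, was at 0.182 FPKM in the vehicle library, 2.502 with SP2509, 21.04 with UNC0642 and 34.8 in the combination. RNASE7, an antimicrobial ribonuclease of skin, was the most abundant of the 12, at 179.7 FPKM with both inhibitors against 5.07 with vehicle, 68.2 with SP2509 alone and 75.1 with UNC0642 alone, with a read ratio of 35.4 (29.5 to 42.9). Sequence reads of the closely related SPRR2, LCE3 and KRT6 copies may be divided among them, and the level of a single copy is uncertain to that extent.

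The other genes among the 12 largest increases were mainly signalling proteins and noncoding RNAs. IL11, a cytokine of the interleukin 6 family, was at 0.0478 FPKM with vehicle and 24.1 with both inhibitors, with 0.168 after SP2509 alone and 0.293 after UNC0642 alone. Either inhibitor alone left IL11 under 0.3 FPKM, and with 2 reads in the vehicle library its read ratio was 503 (139 to 4162). CSF2, the growth factor GM-CSF, was at 0 FPKM in the vehicle library, 6.28 with SP2509, 3.55 with UNC0642 and 21.5 in the combination. Its reads in the combination were 88.1-fold higher than the floor with vehicle (lower limit 71.2). GAST, the gastrin precursor, was at 56.2 FPKM with both inhibitors against 1.22 with vehicle, 4.42 with SP2509 alone and 7.49 with UNC0642 alone. FCRLA, an Fc receptor-like protein of B cells, was at 0.0195 FPKM with vehicle and 22.5 with both inhibitors, with 0.789 after SP2509 alone and 2.75 after UNC0642 alone. LINC01559, a long intergenic noncoding RNA, was at 0.775 FPKM in the vehicle library, 3.59 with SP2509, 17.6 with UNC0642 and 45.7 in the combination. RPL13AP20, a processed pseudogene of the ribosomal protein gene RPL13A, went from 0 to 21.2 FPKM, and reads of its parent gene may be counted in it.

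**Figure D2:**
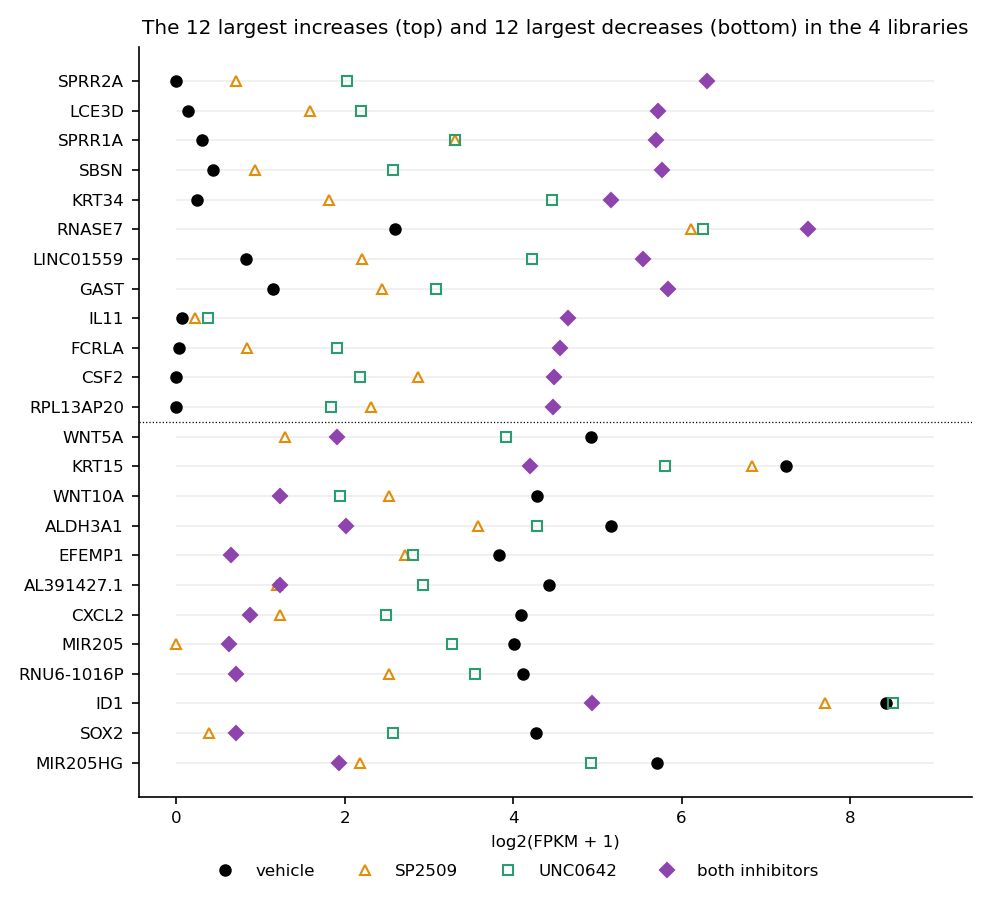
The 12 genes with the largest increase (upper rows) and the 12 with the largest decrease (lower rows), each with at least 20 reads in the higher library. The x axis gives log2(FPKM + 1) in each of the 4 inhibitor libraries, 1 library per symbol. For each of the upper 12 the combination is the rightmost symbol, while for SOX2, WNT5A, MIR205 and AL391427.1 SP2509 alone is further left than the combination.

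The largest decreases included regulators of basal squamous cells. MIR205HG, the host transcript of miR-205, at chr1:209428820-209432838 (GRCh38), was at 2.81 FPKM with both inhibitors against 51.1 with vehicle, 3.53 with SP2509 alone and 29.4 with UNC0642 alone, with a read ratio of 0.0550 (0.0468 to 0.0643). SOX2, a transcription factor of basal squamous cells, was at 18.3 FPKM with vehicle and 0.636 with both inhibitors, with 0.313 after SP2509 alone and 4.94 after UNC0642 alone. In both genes the SP2509 library was far below vehicle as well. The hairpin gene MIR205 lies inside MIR205HG at chr1:209432133-209432242 and went from 26 reads with vehicle to 1 with both inhibitors, a read ratio of 0.0357 (0.0008704 to 0.217). Reads of the host transcript cannot be told apart from reads of the hairpin, and mature miRNAs were not measured. The mature strand that gives the locus its name is shown because the host transcript had the largest decrease of all called genes, and its RefSeq entry (GRCh38.p14, chr1:209432166-209432187, plus strand) reads as follows, with the seed, bases 2 to 8, in capitals.
hsa-miR-205-5p: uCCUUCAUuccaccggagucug

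ID1, a dominant negative helix-loop-helix protein induced by BMP signals, was among the 12 as well, at 344 FPKM in the vehicle library, 207 with SP2509, 364 with UNC0642 and 29.7 in the combination. The level with UNC0642 alone was close to that with vehicle. Its paralogs ID3 (204, 376, 91.8 and 30.6 FPKM) and ID4 (28.5, 18.7, 3.22 and 3.26 FPKM), given in the order vehicle, SP2509, UNC0642 and both, fell too, with log2 ratios of -2.70 and -2.79. Of the 27 tested genes of the ID and BMP list, 8 rose, 8 fell and 11 were not called. That is 29.6% each way, near the 28.8% of all tested genes. The ligand gene BMP2 rose by a log2 ratio of 2.40, from 5.53 FPKM with vehicle to 33.5 with both inhibitors, the ligand gene BMP6 by 1.70 and the homeobox gene MSX1 by 2.79. Single ID genes thus fell and single ligand genes rose, while the list as a whole had shares near those of all tested genes and a median of 0.06. Among the Wnt genes, WNT5A was at 2.76 FPKM with both inhibitors against 29.3 with vehicle, 1.44 with SP2509 alone and 14.1 with UNC0642 alone. WNT10A was at 18.5 FPKM with vehicle and 1.34 with both inhibitors. WNT4 was at 11.2 FPKM with vehicle and 1.27 with both inhibitors, and all 3 fell. WNT7A rose from 0.878 FPKM with vehicle to 8.16 with both inhibitors, as did the antagonist DKK1, from 27.7 FPKM with vehicle to 70.8 with both inhibitors. Of 21 tested Wnt genes, 6 rose (28.6%), 11 fell (52.4%) and 4 were not called. The remaining decreases of the largest 12 were the chemokine gene CXCL2 (16.1 FPKM with vehicle and 0.829 with both inhibitors), the matrix protein gene EFEMP1 (13.2 FPKM with vehicle and 0.568 with both inhibitors), the aldehyde dehydrogenase gene ALDH3A1 (34.8 FPKM with vehicle and 3.05 with both inhibitors), the basal keratin gene KRT15 (151 FPKM with vehicle and 17.3 with both inhibitors), the U6 pseudogene RNU6-1016P (24 reads and 1 read) and AL391427.1, an antisense RNA (20.5 FPKM with vehicle and 1.35 with both inhibitors). The antisense RNA lies within the span of AKR1C2, and with no strand setting given, the reads of both cannot be told apart.

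Among genes of the cornified envelope and late differentiation, increases outnumbered decreases. Of 65 listed, 54 were in the table and 28 were tested, of which 18 rose, 4 fell and 6 were not called, so that 64.3% of the tested members rose, beside 28.8% of all tested genes. All 18 that rose did so at least 2-fold. Because several passed the level filter only through the combination library, their count is a description of the members that were detected. The median log2 ratio of the tested members was 1.60 with both inhibitors, 0.38 with SP2509 and 0.13 with UNC0642. The decreases were KRT4 and KRT13, keratins of the suprabasal esophagus, TGM1, the transglutaminase that cross-links the envelope, and the envelope plakin EVPL. KRT13 was at 23.3 FPKM with vehicle and 9.84 with both inhibitors, with 49.2 after SP2509 alone and 7.52 after UNC0642 alone. KRT4 was at 5.03 FPKM with vehicle and 0.859 with both inhibitors. TGM1 was at 6.17 FPKM with vehicle and 3.27 with both inhibitors. This keratin pair thus fell while the small proline-rich and late envelope genes rose.

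Of 26 tested transcription factors and Notch genes of squamous differentiation, 11 rose (42.3%), 9 fell (34.6%) and 6 were not called. KLF4, a factor of the differentiating layers, was at 4.82 FPKM in the vehicle library, 10.9 with SP2509, 3.94 with UNC0642 and 29.03 in the combination. GRHL3, which acts in barrier formation, was at 10.8 FPKM with both inhibitors against 2.43 with vehicle, 2.295 with SP2509 alone and 2.75 with UNC0642 alone. PRDM1 rose as well, with a log2 ratio of 1.47. CEBPD (-2.30), the Notch ligand gene JAG2 (-2.28) and GATA3 (-2.26) fell most on the log2 scale. GATA3 was at 6.85 FPKM with vehicle and 0.637 with both inhibitors, with 1.14 after SP2509 alone and 0.825 after UNC0642 alone. Of 40 tested genes of basal squamous cells, 18 rose (45%), 17 fell (42.5%) and 5 were not called. TP63, the lineage factor of squamous epithelium, was at 79.1 FPKM in the vehicle library, 127 with SP2509, 62.6 with UNC0642 and 18.3 in the combination, with a read ratio of 0.232 (0.221 to 0.243). KRT5, the basal keratin, was at 163 FPKM with both inhibitors against 427 with vehicle, 734 with SP2509 alone and 303 with UNC0642 alone. Both were above vehicle with SP2509 alone and lowest with both inhibitors. FGFR3, a fibroblast growth factor receptor, was at 13.8 FPKM with vehicle and 4.09 with both inhibitors, with 3.57 after SP2509 alone and 6.89 after UNC0642 alone. The keratins of wounded and hyperproliferative epithelium went the other way, with KRT6A at 0.676 FPKM in the vehicle library, 6.56 with SP2509, 20.03 with UNC0642 and 16.1 in the combination. KRT6B was at 21.1 FPKM with both inhibitors against 2.74 with vehicle, 4.33 with SP2509 alone and 17.5 with UNC0642 alone. KRT16 was at 3.25 FPKM with vehicle and 22.4 with both inhibitors, with 12.3 after SP2509 alone and 6.62 after UNC0642 alone.

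Of 29 listed immediate early and AP-1 genes 25 were tested, and all 25 rose, beside 28.8% of all tested genes. At least 2-fold increases were seen in 20 of them. FOSB was below 1 FPKM with vehicle and was tested only through the combination library, where the filter favours an increase. AP-1 is the dimer of FOS and JUN proteins that is induced by growth factor and stress signals. The list's median log2 ratio was 2.25, beside 2.15 with SP2509 and 0.77 with UNC0642. FOSL1, an AP-1 subunit of squamous cells, was at 6.19 FPKM in the vehicle library, 132 with SP2509, 78.9 with UNC0642 and 148 in the combination. FOSB was at 21.98 FPKM with both inhibitors against 0.632 with vehicle, 13.4 with SP2509 alone and 1.68 with UNC0642 alone. CYR61, a secreted matrix protein, was at 8.89 FPKM with vehicle and 105 with both inhibitors, with 439 after SP2509 alone and 30.5 after UNC0642 alone, so that SP2509 alone had the highest level. In the knockdown libraries, which were normalized separately, the same 25 genes had medians of -0.85 for shLSD1 and -1.24 for shG9a, doxycycline over none, and FOSL1 had ratios of -2.67 and -4.00. Other lists did not all go this way, as given with the hypoxia genes below.

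Feedback genes of the ERK and MAPK pathway rose in 21 of 28 tested cases and fell in 3, with a median log2 ratio of 1.08. DUSP1, a phosphatase that switches off MAP kinases, was at 4.52 FPKM in the vehicle library, 115 with SP2509, 31.1 with UNC0642 and 109.8 in the combination. PHLDA2 was at 59.7 FPKM with both inhibitors against 3.48 with vehicle, 15.6 with SP2509 alone and 14.3 with UNC0642 alone. SPRY4, a Sprouty inhibitor of receptor signals, was at 0.269 FPKM with vehicle and 12.8 with both inhibitors, with 3.02 after SP2509 alone and 2.63 after UNC0642 alone. The 3 that fell were SPRY1 (-0.84), RASA1 (-0.58) and DUSP9 (-0.41). Among 13 tested genes of the EGF receptor family, 3 rose (23.1%), 5 fell (38.5%) and 5 were not called, beside 28.8% each way for all tested genes. The ligand HBEGF was at 2.96 FPKM in the vehicle library, 10.9 with SP2509, 13.1 with UNC0642 and 75.04 in the combination, a read ratio of 25.3 (21.4 to 30.2). TGFA was at 3.87 FPKM with vehicle and 28.8 with both inhibitors. AREG was at 16.6 FPKM with vehicle and 28.5 with both inhibitors. The ligand BTC, the receptor ERBB2 and the inhibitor LRIG3 fell, with log2 ratios of -1.25, -0.87 and -1.52.

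The AP-1 letters were more frequent in promoters of genes up at least 2-fold than in those of the other classes. Promoter sequence, from 250 bases before to 50 after the RefSeq start (GRCh38.p14), matched 9099 of the 13907 tested genes. The letters TGACTCA on either strand were in 9.78% of the 1022 promoters of genes up at least 2-fold, in 2.93% of the 717 of genes down at least 2-fold, in 3.53% of the 9099 and in 4.92% of all 27305 reference promoters of this length. TATAAA, the TATA box, was in 13.1%, 6.69%, 5.99% and 11.95% of the same classes. TTTGAA, letters of the cell cycle homology region, was in 9.69% of the up, 13.7% of the down, 9.73% of the tested and 15.4% of all reference promoters. All motifs were searched on both strands. A match is a description, not a binding site, and the promoters of the genes in each class also differ in composition, since promoters with fewer than 5 CpG were 16.3% of the up class, 8.09% of the down class and 6.34% of all. The 4 genes with the largest increases among named genes that hold TGACTCA or its complement TGAGTCA are shown, each on the strand of its gene and with these letters in capitals, to let the sites be read beside the levels of SPRR2A, SPRR1A, SBSN and IL11 given above. The first site lies 197 bases before the start in SPRR2A (chr1:153057463-153057762, minus strand), 108 in SPRR1A (chr1:152983831-152984130, plus strand), whose RefSeq start lies upstream of the start in the deposited table, 173 in SBSN (chr19:35528262-35528561, minus strand), which has 2 sites, and 96 in IL11 (chr19:55370414-55370713, minus strand).
SPRR2A: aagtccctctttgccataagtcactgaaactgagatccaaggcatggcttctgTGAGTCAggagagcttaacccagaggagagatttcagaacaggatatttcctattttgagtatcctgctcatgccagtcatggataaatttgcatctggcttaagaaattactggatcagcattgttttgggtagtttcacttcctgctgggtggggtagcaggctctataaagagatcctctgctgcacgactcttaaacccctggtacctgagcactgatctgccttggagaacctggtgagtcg
SPRR1A: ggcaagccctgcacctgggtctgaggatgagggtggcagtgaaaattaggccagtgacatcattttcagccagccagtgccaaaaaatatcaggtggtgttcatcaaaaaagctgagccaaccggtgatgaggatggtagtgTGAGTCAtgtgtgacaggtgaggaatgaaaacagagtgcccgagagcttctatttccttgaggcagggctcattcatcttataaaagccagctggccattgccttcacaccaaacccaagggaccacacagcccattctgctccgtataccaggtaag
SBSN: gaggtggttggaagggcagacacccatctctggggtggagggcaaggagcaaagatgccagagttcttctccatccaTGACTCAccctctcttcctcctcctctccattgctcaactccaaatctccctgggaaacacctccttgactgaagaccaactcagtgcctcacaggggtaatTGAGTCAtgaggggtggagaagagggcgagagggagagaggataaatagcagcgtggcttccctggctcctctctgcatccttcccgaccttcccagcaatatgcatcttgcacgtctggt
IL11: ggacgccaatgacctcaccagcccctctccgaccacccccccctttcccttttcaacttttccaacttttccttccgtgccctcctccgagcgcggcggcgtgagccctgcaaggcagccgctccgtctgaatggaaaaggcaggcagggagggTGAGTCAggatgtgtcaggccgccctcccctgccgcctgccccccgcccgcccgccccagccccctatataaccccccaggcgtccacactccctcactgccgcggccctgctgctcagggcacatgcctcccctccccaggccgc

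Of 40 tested cytokine and chemokine genes, 27 rose, 22 of them at least 2-fold, and 8 fell. Several of those that rose, among them IL11, CSF2, IL36B and TNF, were below 1 FPKM with vehicle and were tested only through the combination library. TNF was at 3.57 FPKM with both inhibitors against 0.800 with vehicle, 2.98 with SP2509 alone and 2.301 with UNC0642 alone, with a read ratio of 4.46 (2.77 to 7.52). IL36B, an epithelial cytokine of the interleukin 1 family, had 0 reads with vehicle and was at 17.2 FPKM with both inhibitors, 168-fold higher against the floor (lower limit 136). The neutrophil chemokines at the CXCL locus fell, CXCL1 from 88.9 FPKM with vehicle to 14.2 with both inhibitors and CXCL3 from 5.47 FPKM with vehicle to 0.374 with both inhibitors. CXCL1, CXCL2 and CXCL3 are close copies. CXCL2 and CXCL3 were below 1 FPKM with both inhibitors and were tested only through the vehicle library. Of 41 tested interferon-stimulated genes, 21 rose (51.2%), 10 fell (24.4%) and 10 were not called. ISG15, a ubiquitin-like protein, was at 3.12 FPKM with vehicle and 36.9 with both inhibitors, with 8.23 after SP2509 alone and 6.76 after UNC0642 alone. ISG20, an exonuclease, was at 0.269 FPKM with vehicle and 9.74 with both inhibitors. OASL rose from 0.654 FPKM with vehicle to 7.65 with both inhibitors, while IFITM2 (-1.84), IFITM3 (-1.28) and PSMB8 (-1.05) fell. Of 20 tested S100 and epithelial defence genes, 16 rose, 1 fell and 3 were not called. PI3, the protease inhibitor elafin, was at 3.32 FPKM in the vehicle library, 4.77 with SP2509, 13.2 with UNC0642 and 32.9 in the combination. S100A9, a calprotectin subunit, was at 28.3 FPKM with both inhibitors against 3.98 with vehicle, 6.04 with SP2509 alone and 68.6 with UNC0642 alone. S100A9 was highest with UNC0642 alone. The gene that fell was the mucin MUC4, at 22.3 FPKM with vehicle and 11.6 with both inhibitors.

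**Figure D3:**
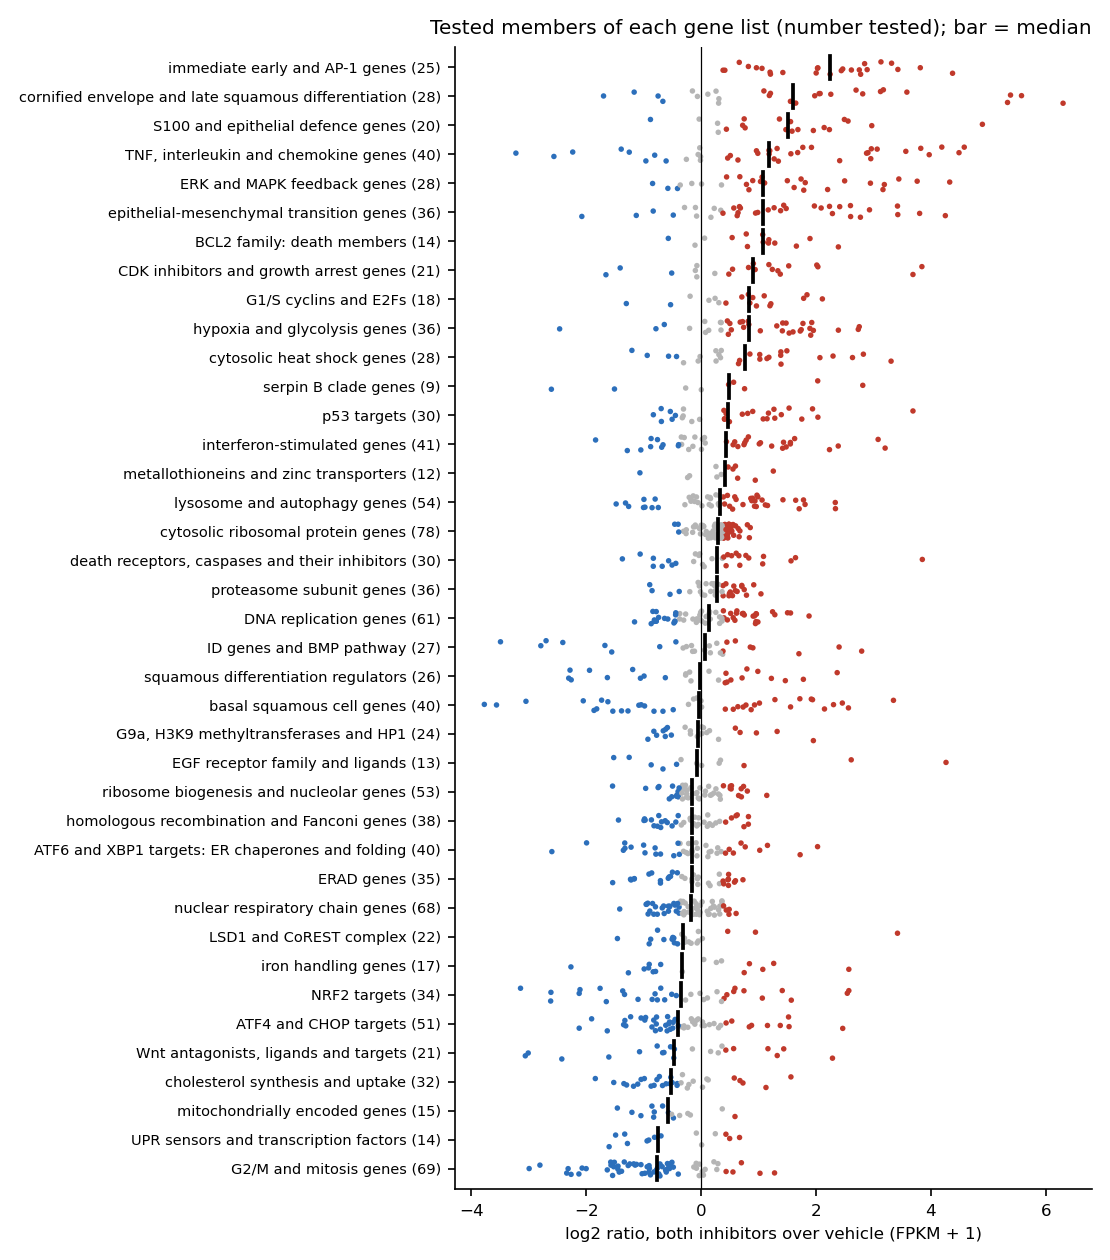
Each point is a tested member of a gene list, with its log2 ratio, both inhibitors over vehicle, on the x axis, and red, blue and grey stand for genes that rose, fell or were not called. The bar is the list's median and the number tested is in parentheses. Lists run from the immediate early and AP-1 genes, median 2.25, at the top to the G2/M and mitosis genes, median -0.76, at the bottom.

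Sensors and transcription factors of the unfolded protein response (UPR), which raises chaperones and slows translation when proteins misfold in the endoplasmic reticulum (ER), fell more often than they rose. Of 14 tested, 3 rose (21.4%), 8 fell (57.1%) and 3 were not called, beside 28.8% each way for all tested genes. The sensor PERK (EIF2AK3) was at 8.21 FPKM with vehicle and 7.697 with both inhibitors, with 3.37 after SP2509 alone and 3.04 after UNC0642 alone. IRE1 (ERN1) was at 4.84 FPKM in the vehicle library, 1.53 with SP2509, 1.78 with UNC0642 and 4.88 in the combination. Neither sensor was called in the combination, with read ratios of 0.937 (0.843 to 1.04) for EIF2AK3 and 1.01 (0.916 to 1.11) for ERN1, and both were lower with either inhibitor alone. ATF6, the third sensor, fell with a log2 ratio of -0.91, and its paralog ATF6B with -1.33. XBP1, the factor spliced by IRE1, was at 39.7 FPKM with both inhibitors against 77.2 with vehicle, 38.5 with SP2509 alone and 24.3 with UNC0642 alone. DDIT3, which encodes the death-linked factor CHOP, was at 70.6 FPKM with vehicle and 22.6 with both inhibitors, with 17.3 after SP2509 alone and 5.696 after UNC0642 alone. ATF4, the factor translated under PERK signalling, rose from 255 FPKM with vehicle to 360.1 with both inhibitors, and was at 209.9 with SP2509 and 186 with UNC0642.

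The chaperone HSPA5 (BiP), the main target of this response, was at 1462 FPKM in the vehicle library, 511 with SP2509, 251 with UNC0642 and 627 in the combination, with a read ratio of 0.429 (0.424 to 0.434). Its level in the combination lay below vehicle and above either inhibitor alone. The same order was seen for HERPUD1, an ER-associated degradation protein, at 40.9 FPKM with both inhibitors against 121 with vehicle, 15.7 with SP2509 alone and 7.82 with UNC0642 alone. DNAJC3, an ER co-chaperone, showed it too, at 34.6 FPKM with vehicle and 12.9 with both inhibitors, with 6.21 after SP2509 alone and 8.03 after UNC0642 alone. DNAJB9, another co-chaperone, was at 23.6 FPKM in the vehicle library, 5.31 with SP2509, 3.23 with UNC0642 and 19.96 in the combination and was not called in the combination. Of 40 tested ER chaperone and folding genes, 9 rose (22.5%), 14 fell (35%) and 17 were not called, beside 28.8% each way for all tested genes. Their median log2 ratio was -0.16, beside -0.67 with SP2509 and -0.33 with UNC0642. SDF2L1 was at 11.7 FPKM with both inhibitors against 75.9 with vehicle, 4.65 with SP2509 alone and 10.7 with UNC0642 alone. CRELD2 was at 21.2 FPKM with vehicle and 4.56 with both inhibitors, with 1.71 after SP2509 alone and 7.25 after UNC0642 alone. The folding oxidases QSOX1 and ERO1A and the translocon subunit SEC61G rose, QSOX1 from 12.6 FPKM with vehicle to 54.4 with both inhibitors. Of 35 tested ER-associated degradation genes, 9 rose (25.7%), 14 fell (40%) and 12 were not called, beside the same 28.8% each way. Among them the ligase SYVN1 was at 33.8 FPKM with vehicle and 13.9 with both inhibitors.

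Targets of ATF4 and CHOP included 9 genes that rose and 26 that fell among 51 tested. Their median log2 ratio was -0.40 with both inhibitors, -1.14 with SP2509 and -1.01 with UNC0642. TRIB3, a pseudokinase, was at 85.4 FPKM in the vehicle library, 3.75 with SP2509, 13.8 with UNC0642 and 22.05 in the combination. SLC7A11, the cystine transporter, was at 10.5 FPKM with both inhibitors against 48.9 with vehicle, 4.199 with SP2509 alone and 23.01 with UNC0642 alone. PCK2 was at 40.8 FPKM with vehicle and 12.5 with both inhibitors, with 4.56 after SP2509 alone and 5.74 after UNC0642 alone. In each of these genes SP2509 alone had the lowest level. ATF3, a stress factor, rose and was at 17.4 FPKM in the vehicle library, 162 with SP2509, 18.1 with UNC0642 and 100.5 in the combination. GDF15, a stress cytokine, was at 135 FPKM with both inhibitors against 46.1 with vehicle, 69.1 with SP2509 alone and 75.2 with UNC0642 alone. The libraries with a single inhibitor and with both share the vehicle library, so these values are set side by side without a test.

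The ER stress response element (ERSE), a CCAAT box and a CCACG box separated by 9 bases, was found on either strand in 13 of 9099 promoters of tested genes (0.143%) and in 22 of 27305 reference promoters (0.0806%). Of these 13, 6 belonged to genes that fell, 1 to a gene that rose and 6 to genes not called, where 2787 of all 9099 promoters belonged to genes that fell and 2716 to genes that rose. The promoters of CRELD2 (chr22:49918384-49918683, plus strand) and HSPA5 (chr9:125241294-125241593, minus strand) are shown because both genes fell and hold the element, with the 2 boxes in capitals. The element starts 80 bases before the start of CRELD2, where it is inverted, and 66 bases before that of HSPA5.
CRELD2: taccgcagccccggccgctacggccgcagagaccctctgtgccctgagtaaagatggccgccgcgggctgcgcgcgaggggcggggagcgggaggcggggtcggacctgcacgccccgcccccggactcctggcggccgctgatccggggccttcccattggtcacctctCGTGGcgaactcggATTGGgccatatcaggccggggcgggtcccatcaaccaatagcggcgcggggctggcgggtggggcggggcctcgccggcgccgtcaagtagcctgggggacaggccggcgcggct
HSPA5: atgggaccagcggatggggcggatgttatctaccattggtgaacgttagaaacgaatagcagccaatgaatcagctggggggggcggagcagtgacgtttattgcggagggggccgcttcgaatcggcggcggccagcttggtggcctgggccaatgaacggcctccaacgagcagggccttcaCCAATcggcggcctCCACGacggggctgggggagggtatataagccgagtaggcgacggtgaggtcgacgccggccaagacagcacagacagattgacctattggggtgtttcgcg

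Cytosolic heat shock genes, which encode chaperones of the cytosol, rose in 16 of 28 tested cases and fell in 4. The median log2 ratio was 0.76, with -0.23 for SP2509 and 0.37 for UNC0642. HSPA2 was at 2.52 FPKM with vehicle and 33.8 with both inhibitors, with 7.02 after SP2509 alone and 8.58 after UNC0642 alone. The small heat shock protein gene HSPB8 was at 4.17 FPKM in the vehicle library, 3.201 with SP2509, 8.21 with UNC0642 and 35.6 in the combination. HSPA1A, an inducible HSP70, was at 50.9 FPKM with both inhibitors against 7.35 with vehicle, 8.89 with SP2509 alone and 24.9 with UNC0642 alone. HSPA1A has a near-identical copy, HSPA1B, which rose too. HSPB1, another small heat shock protein, fell from 107 FPKM with vehicle to 45.9 with both inhibitors, and the collagen chaperone SERPINH1 from 51.4 FPKM with vehicle to 26.4 with both inhibitors. Proteasome subunit genes had 16 increases and 4 decreases among 36, with PSMC4 at 38.04 FPKM with vehicle and 79.3 with both inhibitors, with 19.2 after SP2509 alone and 43.96 after UNC0642 alone. PSMB5 was at 58.97 FPKM in the vehicle library, 46.2 with SP2509, 72.6 with UNC0642 and 112 in the combination. Both were below vehicle with SP2509 alone. The interferon-inducible regulator PSME1 fell from 131 FPKM with vehicle to 69.95 with both inhibitors.

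Genes of BCL2 family members that promote death rose in 11 of 14 tested cases and fell in 1. These proteins open the outer mitochondrial membrane or block the survival members. The median log2 ratio was 1.08 with both inhibitors, -0.13 with SP2509 and 0.01 with UNC0642. BAX, which forms the membrane pore, was at 37.9 FPKM with both inhibitors against 16.3 with vehicle, 12.1 with SP2509 alone and 23.2 with UNC0642 alone. BMF, which binds survival members, was at 1.35 FPKM with vehicle and 7.73 with both inhibitors, with 1.54 after SP2509 alone and 1.38 after UNC0642 alone. BNIP3, also a hypoxia gene, was at 23.8 FPKM in the vehicle library, 122 with SP2509, 62.9 with UNC0642 and 129 in the combination. BNIP3L was at 114 FPKM with both inhibitors against 35.4 with vehicle, 75.99 with SP2509 alone and 75.0 with UNC0642 alone. BCL2L13 fell from 20.4 FPKM with vehicle to 13.4 with both inhibitors. Of the survival members, MCL1 rose and was at 101 FPKM with vehicle and 250.1 with both inhibitors, with 156 after SP2509 alone and 154 after UNC0642 alone. BCL2A1 had 0 reads with vehicle and 43 with both inhibitors, 13.3-fold higher against the floor (lower limit 10.4). BCL2L2 fell from 13.9 FPKM with vehicle to 9.55 with both inhibitors. BCL2 itself was no member, with 0.613 FPKM with vehicle and 0.438 with both inhibitors.

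Among death receptors, caspases and their inhibitors, 14 rose (46.7%), 8 fell (26.7%) and 8 were not called, of 30 tested. TNFRSF10D, a decoy receptor for TRAIL, was at 3.63 FPKM in the vehicle library, 9.87 with SP2509, 15.6 with UNC0642 and 65.7 in the combination. TNFRSF10A, a death receptor for TRAIL, was at 16.7 FPKM with both inhibitors against 4.98 with vehicle, 14.4 with SP2509 alone and 7.65 with UNC0642 alone. The ligand TRAIL itself (TNFSF10) fell, at 6.97 FPKM with vehicle and 2.08 with both inhibitors, with 4.46 after SP2509 alone and 2.22 after UNC0642 alone. CASP8 (-0.10) and the caspase inhibitor XIAP (-0.13) were not called, while CASP1 and TNFRSF1A fell. PARP1, a DNA repair enzyme that caspases cleave, was at 49.8 FPKM in the vehicle library, 12.2 with SP2509, 50.4 with UNC0642 and 34.8 in the combination.

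The p53 target genes numbered 30 tested, of which 19 rose, 6 fell and 5 were not called. CDKN1A, which encodes the CDK inhibitor p21, was at 151 FPKM with both inhibitors against 10.8 with vehicle, 53.02 with SP2509 alone and 38.01 with UNC0642 alone, a read ratio of 13.98 (12.8 to 15.3). BTG2 was at 4.98 FPKM with vehicle and 23.5 with both inhibitors, with 8.86 after SP2509 alone and 5.43 after UNC0642 alone. SFN, the 14-3-3 sigma protein, was at 179 FPKM in the vehicle library, 312 with SP2509, 412 with UNC0642 and 690.2 in the combination. FAS, FDXR and TP73 fell, with log2 ratios of -0.83, -0.70 and -0.69. Of 21 CDK inhibitor and growth arrest genes, 14 rose, 3 fell and 4 were not called. TXNIP, a thioredoxin-binding arrestin-like protein, was at 30.3 FPKM with both inhibitors against 1.18 with vehicle, 1.98 with SP2509 alone and 0.848 with UNC0642 alone. RBL2 (-1.66), CDKN3 (-1.41) and CDKN1B (-0.51), which encodes the CDK inhibitor p27, fell.

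The cell cycle genes parted by phase. G1/S cyclin and E2F genes, which drive entry into S phase, rose in 12 of 18 tested cases and fell in 2, with a median log2 ratio of 0.84. CCNE1, cyclin E, was at 1.002 FPKM with vehicle and 7.64 with both inhibitors, with 0.308 after SP2509 alone and 3.46 after UNC0642 alone. E2F1 was at 7.86 FPKM in the vehicle library, 5.07 with SP2509, 11.03 with UNC0642 and 30.8 in the combination. The phosphatase CDC25A was at 16.4 FPKM with both inhibitors against 4.06 with vehicle, 1.24 with SP2509 alone and 6.31 with UNC0642 alone. With SP2509 alone all 3 were below vehicle. CDK2, the partner of cyclin E, was at 5.15 FPKM with vehicle and 10.1 with both inhibitors, with 6.82 after SP2509 alone and 8.43 after UNC0642 alone. RB1 was not called at 15.6 FPKM with vehicle and 14.8 with both inhibitors, and CDK6 fell from 11.02 FPKM with vehicle to 3.88 with both inhibitors. Of 61 DNA replication genes 23 rose, 16 fell and 22 were not called, that is 37.7% up and 26.2% down, beside 28.8% each way for all tested genes. Among them was FEN1, the flap endonuclease, at 16.2 FPKM in the vehicle library, 5.19 with SP2509, 31.8 with UNC0642 and 62.1 in the combination. ORC5, a subunit of the origin recognition complex, was at 9.72 FPKM with vehicle and 3.802 with both inhibitors.

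G2/M and mitosis genes fell in 52 of 69 tested cases, 26 of them at least 2-fold, and rose in 5. Their median log2 ratio was -0.76 with both inhibitors, 0.08 with SP2509 and 0.07 with UNC0642. CENPE, a kinetochore motor, was at 0.408 FPKM with both inhibitors against 10.2 with vehicle, 8.69 with SP2509 alone and 8.87 with UNC0642 alone, a read ratio of 0.0399 (0.0307 to 0.0512). HMMR, a spindle protein, was at 17.4 FPKM with vehicle and 1.63 with both inhibitors, with 16.4 after SP2509 alone and 17.2 after UNC0642 alone. TOP2A, the topoisomerase of mitotic chromosomes, was at 100.2 FPKM in the vehicle library, 136 with SP2509, 101 with UNC0642 and 19.0 in the combination. In these genes the combination stood far below the other 3 libraries. CENPE was below 1 FPKM with both inhibitors and was tested only through the vehicle library. CCNB1, cyclin B1, and PLK1, a mitotic kinase, were singled out after their values were seen. CCNB1 fell from 54.3 FPKM with vehicle to 18.4 with both inhibitors. PLK1 fell from 18.8 FPKM with vehicle to 3.71 with both inhibitors. CCNA2, cyclin A, fell from 29.3 FPKM with vehicle to 19.7 with both inhibitors. The genes that rose were CKS2, MYBL2, CENPN, CKS1B and CDK1, with CKS2 at 147 FPKM with both inhibitors against 60.1 with vehicle, 88.6 with SP2509 alone and 72.5 with UNC0642 alone. Of the checkpoint kinases, CHEK1 was not called (0.12) and CHEK2 fell (-0.50). Homologous recombination and Fanconi genes had 7 increases (18.4%) and 15 decreases (39.5%) among 38, with NBN at 15.9 FPKM with vehicle and 5.24 with both inhibitors. EXO1 was at 13.3 FPKM with vehicle and 24.4 with both inhibitors.

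**Figure D4:**
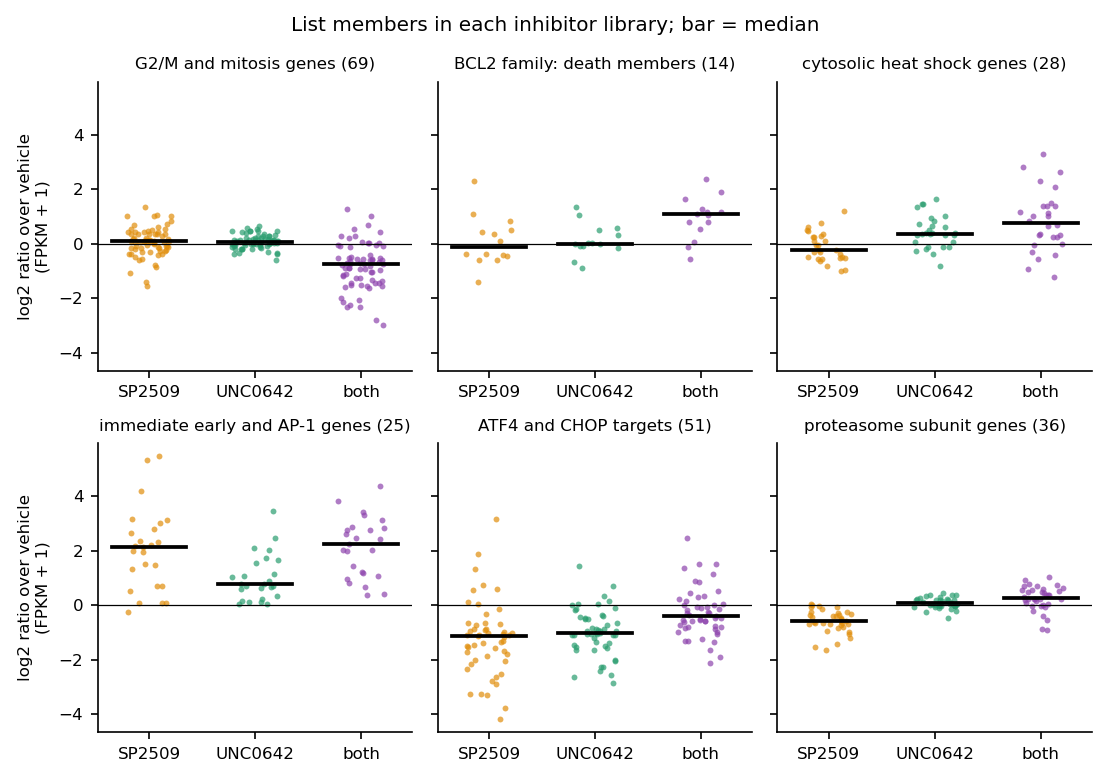
Tested members of 6 gene lists (number in parentheses), with the log2 ratio of (FPKM + 1) over vehicle on the y axis for SP2509, UNC0642 and both inhibitors. Points are genes and bars are medians, and the 3 comparisons share the vehicle library. The G2/M panel shows medians of 0.08, 0.07 and -0.76.

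Hypoxia and glycolysis genes rose in 26 of 36 tested cases and fell in 3. CA9, a carbonic anhydrase induced by low oxygen, was at 12.1 FPKM with vehicle and 87.2 with both inhibitors, with 68.2 after SP2509 alone and 66.2 after UNC0642 alone. ENO2, a glycolytic enolase, was at 5.62 FPKM in the vehicle library, 29.5 with SP2509, 25.9 with UNC0642 and 43.1 in the combination. HIF1A, the gene of the factor that drives this response, fell, and stood at 21.4 FPKM with both inhibitors against 123 with vehicle, 97.8 with SP2509 alone and 128 with UNC0642 alone, a read ratio of 0.175 (0.166 to 0.184). Its level with UNC0642 was close to vehicle. The list's median log2 ratio was 0.83, beside 0.83 with SP2509 and 0.77 with UNC0642, while in the knockdown table it was -1.58 for shLSD1 and -1.42 for shG9a. Lists differed in how the knockdown medians lay beside the combination. For ER chaperone and folding genes they were -0.55 (shLSD1) and -1.29 (shG9a), beside -0.16 with both inhibitors. For ATF4 and CHOP targets they were 0.16 and -1.16, beside -0.40. For G2/M and mitosis genes they were 0.42 and 0.66, beside -0.76.

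NRF2 target genes, an antioxidant group, had 10 increases (29.4%) and 17 decreases (50%) among 34, beside 28.8% each way for all tested genes. HMOX1, heme oxygenase, was at 4.09 FPKM with vehicle and 29.2 with both inhibitors, with 1.07 after SP2509 alone and 10.1 after UNC0642 alone. AKR1B1, an aldose reductase, was at 38.6 FPKM in the vehicle library, 24.1 with SP2509, 139.9 with UNC0642 and 229.9 in the combination. AKR1C2, one of several close aldo-keto reductase copies, was at 32.7 FPKM with both inhibitors against 205 with vehicle, 17.2 with SP2509 alone and 96.5 with UNC0642 alone. Cholesterol synthesis and uptake genes fell in 19 of 32 tested cases and rose in 5. SREBF1, a factor of lipid synthesis, was at 51.4 FPKM with vehicle and 13.6 with both inhibitors, with 15.7 after SP2509 alone and 35.8 after UNC0642 alone. Among 17 iron handling genes 5 rose (29.4%) and 8 fell (47.1%), the share that rose being near that of all tested genes. The transferrin receptor TFRC was at 179 FPKM in the vehicle library, 504 with SP2509, 324 with UNC0642 and 431 in the combination. Ceruloplasmin (CP) fell from 15.3 FPKM with vehicle to 2.395 with both inhibitors. Lysosome and autophagy genes had 26 increases and 9 decreases among 54. The lysosomal enzymes GLA and NEU1 rose, from 14.2 FPKM with vehicle to 75.8 with both inhibitors and from 5.52 FPKM with vehicle to 31.9 with both inhibitors, and the protease CTSB fell from 213 FPKM with vehicle to 75.7 with both inhibitors.

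Of 15 listed mitochondrially encoded genes 9 fell and 1 rose. On the whole mitochondrial chromosome 16 genes were tested, of which 9 fell and 2 rose. The gene outside the list was a transfer RNA gene that rose at least 2-fold. MT-CO1, a subunit of cytochrome c oxidase, was at 4665 FPKM with both inhibitors against 12817 with vehicle, 7629 with SP2509 alone and 9700.0 with UNC0642 alone, while the ribosomal RNA gene MT-RNR1 rose from 1283 FPKM with vehicle to 1930.5 with both inhibitors. Reads recovered on the mitochondrial chromosome were at least 6.41% of the library total with vehicle and at least 4.87% with both inhibitors. Both values are lower bounds, because the recovery takes the fewest reads a gene can have. The true shares, and the difference between them, are not known from these reads. Nuclear genes of the respiratory chain had 5 increases (7.35%) and 23 decreases (33.8%) among 68. Among them NDUFV1 was at 39.8 FPKM with vehicle and 14.3 with both inhibitors. Of 78 cytosolic ribosomal protein genes, 28 rose (35.9%), 3 fell (3.85%) and none did so 2-fold. Ribosome biogenesis genes had 11 increases and 13 decreases among 53, that is 20.8% up and 24.5% down, beside 28.8% each way for all tested genes. Among them were NOP10, of the pseudouridylation particles, which rose from 51.2 FPKM with vehicle to 114 with both inhibitors, and UTP20, which fell from 12.4 FPKM with vehicle to 3.62 with both inhibitors.

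Partners of LSD1 had 3 increases (13.6%) and 10 decreases (45.5%) among 22. SNAI1, a repressor that recruits LSD1, was at 0.454 FPKM with vehicle and 14.5 with both inhibitors, with 1.63 after SP2509 alone and 1.53 after UNC0642 alone. GFI1, another such repressor, rose from 0.348 FPKM with vehicle to 1.597 with both inhibitors, and HMG20B from 13.6 FPKM with vehicle to 19.1 with both inhibitors. MTA3 and CHD3, of the NuRD complex, fell with log2 ratios of -1.46 and -0.88. Among 24 genes of H3K9 methylation, 5 rose (20.8%) and 8 fell (33.3%), beside 28.8% each way for all tested genes. KDM3A, an H3K9 demethylase, was at 6.94 FPKM in the vehicle library, 39.5 with SP2509, 10.3 with UNC0642 and 29.7 in the combination. UHRF1, a reader of H3K9 methylation, was at 17.3 FPKM with both inhibitors against 8.38 with vehicle, 5.33 with SP2509 alone and 16.1 with UNC0642 alone. The methyltransferases SETDB1 and SETDB2 fell, with -0.77 and -0.82. Germline genes, a group often silenced by H3K9 methylation, were mostly below the level filter. Only 4 of 29 in the table were tested, and 2 rose and 2 fell, with MAGEA3, which has close copies, at 45.9 FPKM with vehicle and 66.3 with both inhibitors. HORMAD1 was at 18.5 FPKM with vehicle and 4.705 with both inhibitors. Of 36 genes of epithelial-mesenchymal transition 26 rose and 4 fell. ITGA5, an integrin subunit, was at 3.66 FPKM with vehicle and 64.02 with both inhibitors, with 24.8 after SP2509 alone and 25.5 after UNC0642 alone. MMP1, a collagenase, was at 0.259 FPKM in the vehicle library, 0.399 with SP2509, 2.07 with UNC0642 and 12.5 in the combination. TGFB2 and COL5A2 fell and were above vehicle with SP2509 alone, with TGFB2 at 2.105 FPKM with both inhibitors against 5.79 with vehicle, 30.3 with SP2509 alone and 3.45 with UNC0642 alone. COL5A2 was at 17.8 FPKM with vehicle and 3.47 with both inhibitors, with 43.8 after SP2509 alone and 8.304 after UNC0642 alone.

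Calls also differed with features of the genes. Among genes that span more than 100 kb, 19.4% rose and 42.3% fell, whereas among those of 5 to 20 kb 36.1% rose and 25.2% fell. Of the 419 genes at 100 FPKM or more in the higher library, 45.3% rose and 20.3% fell. Chromosome 19 had the highest share of genes that rose among chromosomes 1 to 22 and X, 39.4% of 845, and the lowest share that fell, 16.9%. Chromosome 4 had the lowest share that rose, 22.04%. Long intergenic noncoding RNAs rose in 39.8% of 580 cases and fell in 27.4%, and 27.4% of them rose at least 2-fold, against 11.6% of protein-coding genes. The level filter bears on these shares too, since a gene below 1 FPKM in 1 library was tested only through the other. Which of span, level and chromosome goes with the calls on its own was not tested. Where a gene list above holds mostly long or short genes, the part of gene span in its count was not tested either.

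**Figure D5:**
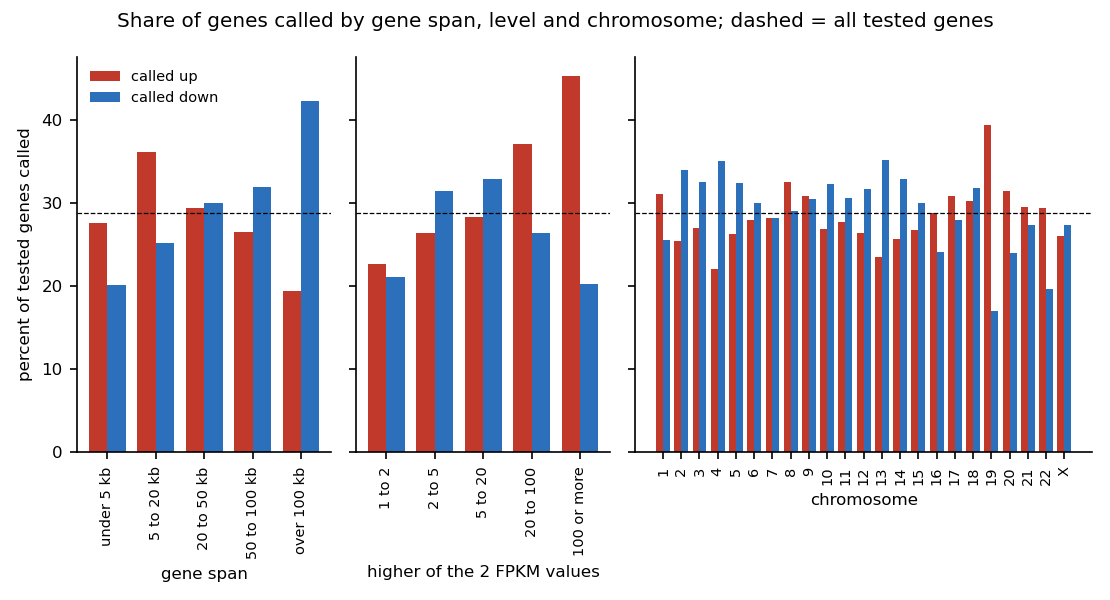
Percent of tested genes that rose (red) and fell (blue) by gene span, by the higher of the 2 FPKM values and by chromosome. The dashed line marks 28.8%, the share of all tested genes that rose and, equally, that fell. Genes over 100 kb and those of chromosome 4 have more decreases than increases, and genes at 100 FPKM or more and those of chromosome 19 the reverse.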

How the data were processed

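RNA-seq of Kyse510 cells was analysed for the libraries named above, with groups taken from the sample labels. According to the study's methods, low-quality and contaminated reads were removed and the rest mapped to GRCh38. The aligner, the counting tool and the strand setting are not given in the sources used here. The authors deposited FPKM values per gene, and positions and gene types were used as deposited.

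For each library, the total was found from 6559 genes with 1 exon (GENCODE 44), where 1 read is a known step of FPKM. For every other gene the smallest whole length that gives whole reads in all 4 inhibitor libraries was taken. This yields the fewest reads a gene can have, 96.9% to 97.5% of the totals, and therefore wider intervals. Tested on simulated libraries, the procedure recovered all 4 totals and all reads of 96.3% of 23681 genes. It called 100 of 100 genes changed 2-fold, 98 of 100 changed 4-fold and, wrongly, 77 of 12630 that were not changed. The simulated libraries held counting error only, with no differences between cultures, and the changed genes were drawn from genes of higher level. These counts are therefore no error rate for the calls on the real libraries. A pseudocount of 1 FPKM was added before log2 ratios. The fold threshold of 1.3 is that of the study's methods.

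The members and the 48 gene lists and 12 motifs were chosen with earlier results of these data known. Genes named are the 12 largest changes each way with at least 20 reads, the 3 largest called changes each way in each list, and genes the study followed, some of which are not reported here. Knockdown libraries were compared only within their own table. No replicate test, set test or correlation was run. Promoters and the miRNA are RefSeq sequences of GRCh38.p14. Alternatives were pseudocounts of 0.1 and 0.01, other level filters and folds, 2 scalings, protein-coding genes only, no counting interval, and reads from the reference gene length. Python 3.11.15 with numpy 2.4.6, scipy 1.17.1, pandas 2.3.3 and matplotlib 3.10.9 was used.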

Additional observations from a re-analysis of the deposited data

How the results depend on the processing

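No paired analysis was possible because each condition has 1 library, and no library could be left out for the same reason. Under FPKM of at least 5 in either library 2533 genes rose and 2411 fell, of 7960 tested, and at a fold of at least 2 the counts were 1653 and 1162, both by construction fewer. Under the 8 other alternatives the counts stayed within 1.5 times 4002 and 4009, from 3354 to 4762 up and from 3373 to 4413 down. Centring on the median of genes at 5 FPKM or more in both libraries gave 3807 up and 4227 down. The log2 ratio of no called gene named above changed sign under either pseudocount or scaling, but this could not have come out otherwise. A pseudocount cannot reverse the sign of a ratio, and both scalings shifted ratios by far less than the fold needed for a call. The unchanged signs are therefore no check of the calls. Among list medians of at least 1.3-fold either way, 1 changed sign, that of the 4 tested BCL2 survival members. It went from 0.57 to -0.051 without a level filter and to -0.16 at 5 FPKM or more, since other members then enter or leave. Sign changes of list medians nearer 0 were not counted. Over all alternatives 91 list counts moved by more than 1.5 times, 67 of them at a fold of at least 2, and 867 did not. Ratios of low genes depend on the pseudocount, and 99 of 269 named genes moved by more than their counting error at 0.01. With 1 library a side, differences between cultures cannot be told apart from differences between treatments.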

Other observations

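The share of genes up at least 2-fold was counted in windows along the genome, with no test of clustering. Of 624 windows of 1 Mb with at least 8 tested genes, the median window had 10% of its genes up at least 2-fold and 170 windows had none. The highest share, 71.4%, was in the epidermal differentiation complex on chromosome 1 (152000001 to 153000000, GRCh38), where 10 of 14 tested genes rose at least 2-fold, among them LCE3D, IVL and SPRR1A. LCE3D and SPRR1A were below 1 FPKM with vehicle and were tested only through the combination library, so this share is a description. The next window, from 153000001, had 15 of 33, with SPRR2A and several S100 genes. A keratin window on chromosome 12, from 52000001, had 7 of 14 up, among them KRT6A, KRT75 and KRT80, and KRT5 and KRT4 down. In the window on chromosome 2 from 233000001, 7 of 12 tested genes fell at least 2-fold, among them UGT1A6, UGT1A1 and the pseudogene UGT1A2P of the same locus, whose spans overlap, so that their reads may be shared. KRT75, a keratin of the hair follicle that was chosen after its value was seen, was at 4.73 FPKM in the vehicle library, 67.1 with SP2509, 64.1 with UNC0642 and 92.9 in the combination.

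Of 9 tested serpins of the B clade 5 rose and 2 fell. SERPINB7 was at 23.6 FPKM with both inhibitors against 2.49 with vehicle, 20.3 with SP2509 alone and 10.6 with UNC0642 alone. SERPINB3 and SERPINB4, near-identical copies that encode the squamous cell carcinoma antigens, stood highest with UNC0642 alone, SERPINB3 at 9.81 FPKM with vehicle and 2.80 with both inhibitors, with 5.44 after SP2509 alone and 66.03 after UNC0642 alone and SERPINB4 at 5.202 FPKM in the vehicle library, 6.28 with SP2509, 71.4 with UNC0642 and 9.48 in the combination. SERPINB13 fell and was at 1.999 FPKM with both inhibitors against 17.3 with vehicle, 8.74 with SP2509 alone and 11.3 with UNC0642 alone. Of 4 tested kallikrein genes, proteases of the shedding squamous layer, KLK5, KLK14 and KLK6 rose and KLK10 fell, with KLK5 at 8.61 FPKM with vehicle and 23.5 with both inhibitors, with 8.05 after SP2509 alone and 5.21 after UNC0642 alone. KLK14 was at 0.220 FPKM (4 reads) with vehicle and 1.28 FPKM (25 reads) with both inhibitors. It was thus tested only through the combination library. Among 12 tested metallothionein and zinc transporter genes 6 rose and 1, SLC39A8, fell, and MT2A was at 124 FPKM in the vehicle library, 258 with SP2509, 386 with UNC0642 and 239 in the combination.

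Of the other motifs searched on both strands, each share is given in the order genes up at least 2-fold, genes down at least 2-fold, all tested genes and all reference promoters. TGACGTCA, the cyclic AMP response element, was in 4.01%, 3.49%, 3.43% and 1.98% respectively. The composite site of ATF4 and C/EBP, TGATGNAAN, was in 2.84%, 2.37%, 1.71% and 3.67%. The E2F letters TTTGGCGC were in 0.783%, 0.976%, 1.14% and 0.659%. The related letters TTTCCCGC were in 2.45%, 2.51%, 2.69% and 1.66%. The heat shock element was in 0.489%, 0%, 0.275% and 0.487%. CCAAT, the CCAAT box, was in 38.5%, 38.8%, 37.1% and 35.7%. The metal response element, TGCGCNC, was in 26.03%, 28.3%, 31.1% and 19.97%. CACGTG, an E-box, was in 8.904%, 11.9%, 10.2% and 7.43%. Among genes up at least 4-fold, 26.8% of 213 promoters had fewer than 5 CpG, beside 6.34% of all 9099.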
